A study of Bos taurus with 17 samples.

Results

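Histones are the proteins around which DNA is wound. The genes that encode them were followed in bovine cumulus cells, which surround and feed the oocyte, across 3 stages of the oocyte they surrounded. A probe was taken as a histone probe when its gene name or description on the array named a linker histone (H1) or a core histone (H2A, H2B, H3 or H4), without enzymes that modify histones or proteins that bind them, and 2 further probes, of H1-2 and H1-3, were added singly. This gave 38 of the 21475 non-control probes of the array, 9 of them for H1, 14 for H2A, 9 for H2B, 4 for H3 and 2 for H4. Each of the 38 probes stood for a different gene. The current symbol was found through the gene number or accession for 31 probes, and 7 kept the name given on the array.

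NC1 cumulus came from the compact complexes of 6 prepubertal Bos taurus calves aged 3 to 6 months. These were aspirated after slaughter from follicles of 3 to 6 mm and held prophase I oocytes with poor or no competence to develop. C1 cumulus came by the same procedure from the compact complexes of 6 adult cows of different ages, around prophase I oocytes with competence to develop. C2 cumulus was expanded and surrounded metaphase II oocytes of 5 non-lactating Holstein cows aged 3 to 5 years, collected in vivo by ovum pick up from follicles of more than 8 mm. The C2 cows had received progestagen implants, a pituitary FSH/LH preparation and prostaglandin F2α, given 60 h before collection. The step from NC1 to C1 is thus also a step in age, and the step from C1 to C2 also one in hormones, follicle size and collection, and these cannot be told apart from stage. Each sample held the cumulus of 1 animal, freed mechanically from the oocytes, and was hybridised to 1 array.

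Histone genes fall into families that differ in when they are used. The clustered, replication-dependent genes lie together in the genome, are read mainly during S phase, and give mRNAs that end in a conserved stem-loop in place of a poly(A) tail. The replacement variants, such as H2AZ1, H3-3A or H1-10, lie singly, give polyadenylated mRNAs and are read throughout the cell cycle, and further genes are restricted to the germ line, such as the oocyte linker histone H1-8. Cumulus cells divide while the follicle grows and stop dividing as the complex expands before ovulation. The labelling used here primes on poly(A), so for the clustered genes the signal comes from what was primed of mRNAs that mostly lack a tail, and its share of the whole mRNA was not measured.

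A probe sequence was found for 27 of the 38 histone probes. Probes were 60 bases long. The poly(A) signal AATAAA stood in 14.3% of the 15239 probes with a sequence, and its reverse complement TTTATT in 4.35%. The variant signal ATTAAA stood in 4.61% and its reverse complement TTTAAT in 2.99%. The motif AAGGCTCTT, which spans the first arm of the histone stem-loop, stood in 11 probes or 0.0722%, and 4 of the 11 were histone probes. Its reverse complement AAGAGCCTT stood in 0.0591% of all probes and in no histone probe. The last 30 bases of the 4 are shown, with the motif in capitals, because the stem-loop is the ending that sets clustered histone mRNAs apart.
H2AC15: tcaaacctgttcaaaccaaAAGGCTCTTtt
H2AC10: tcgctacaaccttttacccaAAGGCTCTTt
H2BC12: ccgttcttagaccaaccacaAAGGCTCTTt
LOC615006: ctcgaggttccatcaaatccaAAGGCTCTT
H2AC15 and H2AC10 encode H2A, H2BC12 encodes H2B, and LOC615006 is described on the array as an H3 gene. The motif reached base 58, 59, 59 and 60 of the probe in this order. The bases AATAAA or ATTAAA were found in the probes of H2AC12, H2AX and H1-9. The 30 bases that hold them are shown for the first and the second of these, with the match in capitals. A match alone does not show a poly(A) signal in use. That of H2AC12 overlaps a TAA stop when the bases before it are read as codons.
H2AC12: aaactgagagccatcacaaggccaAATAAA
H2AX: atggactaattttATTAAAgggttttttcc
The last 30 bases of the probes of H1-2 and H1-3 are shown to identify them, since the array describes the first as like human HIST1H1E while the current name of its gene is H1-2. Neither holds a motif searched here.
H1-2: cctcaacatctgaaaatcgtagatgcttta
H1-3: cggacataaatccctaggtttaccaatgag
Of the 351 pairs of histone probes with a sequence, the longest stretch of identical bases was 21, between LOC521825 and LOC618147, and then 15, between H2AC21 and LOC618147. Histone genes of one class are alike, so a probe may also take up signal from a near-identical copy, which was not separated here.

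Levels are log2 signals relative to the median probe of the array, which is 0. Signals of different probes are not comparable as amounts of mRNA, so each probe is compared with itself between stages. Between 66.2% and 82.8% of the probes of an array were well above background. The stages were compared with limma over 13865 probes, and a probe was called at a Benjamini-Hochberg adjusted p under 0.01. Errors of levels are SD over the arrays of a stage (n = 6 for NC1 and C1, n = 5 for C2), and errors of differences are SE. Precision is limited by these numbers of arrays. In whole cumulus, fewer cells of a type and less RNA per cell cannot be told apart.

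Of the 38 histone probes, 26 were measured well enough in every stage to be tested, 6 of 9 for H1, 13 of 14 for H2A, 3 of 9 for H2B, 4 of 4 for H3 and 0 of 2 for H4. Among the 26, 11 differed among the 3 stages by limma's F, where 28.6% of all tested probes did. At C2, 9 histone probes fell in comparison to C1, where 12.8% of all probes did, and 8 fell in comparison to NC1, where 12.6% of all probes did. H1-2 and H1-3, added singly with earlier results of these data known, are among the 11 and the 8. None rose in comparison to C1, where 15.3% of all probes did, or in comparison to NC1, where 15.5% did. In the direction of a rise, the unadjusted p was under 0.05 for MACROH2A2 against C1 and for MACROH2A1 and H2AJ against NC1, and no other scaling, filter or block called a histone probe higher. A wider reading of the gene names added 3 probes that rose against C1, described with their values further on. The median log2 difference of the 26 was -0.65 for C2 minus C1 and -0.30 for C2 minus NC1, beside 0.02 and 0.11 over all tested probes.

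Of the 8 tested clustered genes, 5 fell at C2 against C1 and 6 against NC1, with median log2 differences of -1.97 and -1.83. The 6 include H1-2 and H1-3, which were added singly. The wider reading added 8 tested clustered genes, and of the 16 then, 7 fell and 3 rose against C1 with a median of -0.72, and 7 fell and 2 rose against NC1 with a median of -1.03. Of the 11 tested replacement variants, 1 fell in both comparisons, H2AX, and the medians were -0.03 and 0.31. The difference between the families was not tested. Of 6 tested probes that could not be placed in either family by name, 3 fell against C1 and 1 against NC1. The latter was LOC615006, whose probe ends in the stem-loop arm of clustered histone mRNAs but which was not counted with them.

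**Figure D1:**
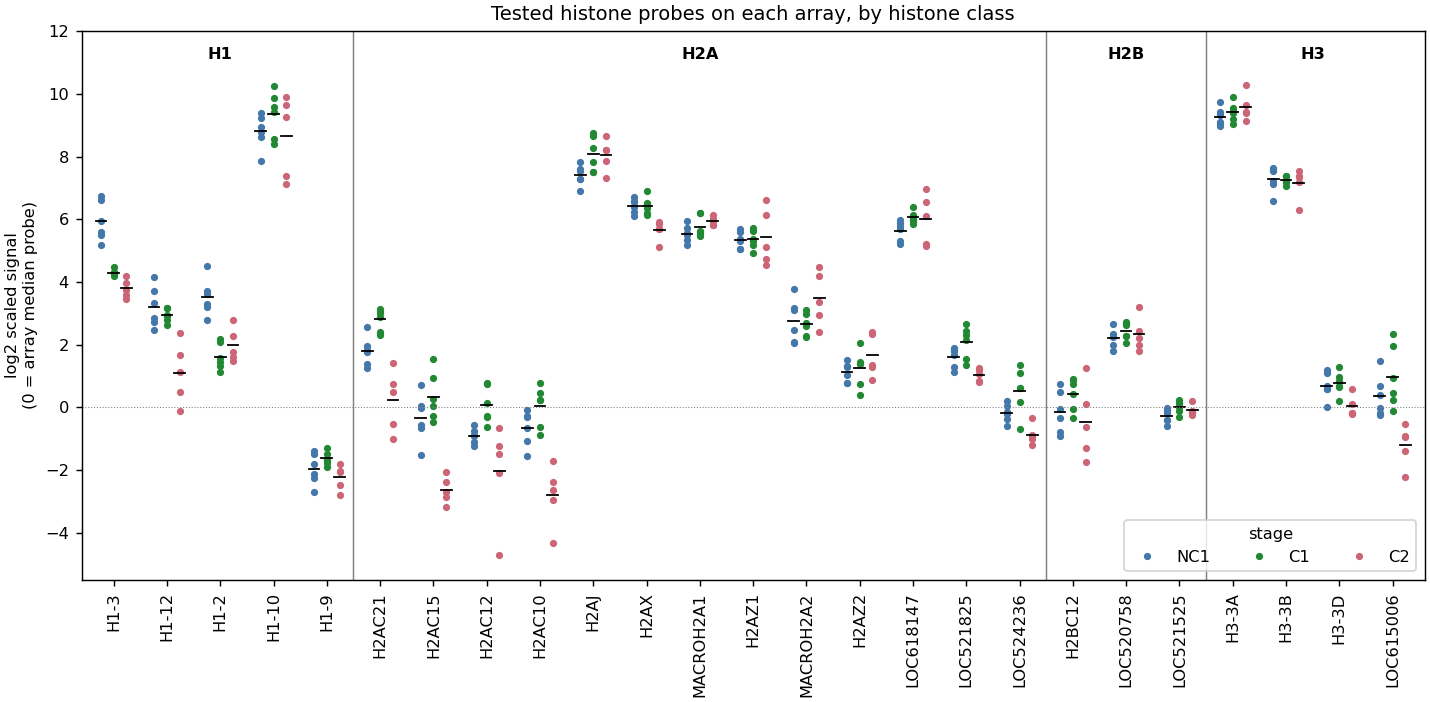
Log2 scaled signal of 25 of the 26 tested histone probes (vertical axis, 0 is the array's median probe) on each array, grouped by histone class. Points are arrays, coloured by stage, and black lines are stage means. The H2A genes H2AC21 to H2AC10 sit lowest at C2, while H3-3A and H3-3B keep overlapping levels. Levels of different probes are not comparable.

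H2AC15, a clustered gene of the core histone H2A, fell in both comparisons. Its level ran from -1.52 to 0.70 over the NC1 arrays (median -0.29) and from -0.48 to 1.55 over the C1 arrays (median 0.15). On the 5 C2 arrays it was -2.88, -2.40, -2.70, -3.17 and -2.07. Every C2 array lay below every array of the other stages. H2AC15 fell 7.88-fold at C2 in comparison to C1 (log2 -2.98 ± 0.38, adjusted p = 6.4e-06) and 4.95-fold in comparison to NC1 (log2 -2.31 ± 0.38, adjusted p = 0.000104). The exact permutation p was 0.00433 in both comparisons, the smallest that 5 arrays against 6 allow. The size of the fall depended on the background correction and its offset. Normexp was run with an offset of 50 added to every signal, which draws differences of dim probes towards 0. With it the log2 differences were -1.42 and -1.0, and both still passed (adjusted p = 0.000217 and 0.00406). The part of the offset was not separated.

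H2AC10, another clustered H2A gene whose probe ends in the stem-loop arm, ran from -1.56 to -0.10 at NC1 (median -0.47) and from -0.90 to 0.78 at C1 (median 0.24). Its C2 arrays were at -4.34, -1.73, -2.97, -2.38 and -2.64. Again no C2 array overlapped the other stages, and C2 replicate 1 was the lowest. H2AC10 fell 7.17-fold against C1 (log2 -2.84 ± 0.40, adjusted p = 2.03e-05) and 4.45-fold against NC1 (log2 -2.15 ± 0.40, adjusted p = 0.000351). Of the 5 C2 arrays, 4 measured it well above background. With normexp the log2 differences were -1.25 and -0.80, and both still passed (adjusted p = 0.000189 and 0.00688).

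LOC615006, the H3 gene with the same ending, ran from -0.25 to 1.46 at NC1 (median 0.17) and from -0.11 to 2.35 at C1 (median 0.69). At C2 it was at -2.22, -0.94, -0.93, -0.53 and -1.39, below all arrays of both other stages. It fell 4.49-fold against C1 (log2 -2.17 ± 0.43, adjusted p = 0.000613) and 2.92-fold against NC1 (log2 -1.54 ± 0.43, adjusted p = 0.00825). The call against NC1 was lost when any one of 9 of the 17 arrays was left out, namely NC1 replicates 2, 3, 4 and 6, C1 replicate 5 and C2 replicates 1, 2, 3 and 5, with an adjusted p of up to 0.0259. It was also lost with the slide as a block (adjusted p = 0.0124). With normexp background correction it was lost at a difference of -0.90 (adjusted p = 0.0371), and the difference from C1 was -1.46 (adjusted p = 0.00185). Array weights, a replicate block and no filter on dim probes ended the call against NC1 too (adjusted p = 0.0237, 0.0263 and 0.0119).

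H2BC12, the H2B gene beside H2AC12 in the genome and the remaining probe that ends in the stem-loop arm, did not pass. It ran from -0.92 to 0.74 at NC1 and from -0.33 to 0.90 at C1, and was at -1.75, -0.62, 0.09, 1.25 and -1.30 at C2. The stages overlapped, and C2 replicates 3 and 4 were above the other C2 arrays. C2 minus C1 was -0.88 ± 0.45 (adjusted p = 0.123). It was -1.74 among the arrays of scan day 1 and 0.35 among those of scan day 2, which held C2 replicates 3 and 4.

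H2AC21, an H2A gene next to H2AC20 in the genome, ran from 1.24 to 2.56 at NC1 (median 1.79) and from 2.31 to 3.15 at C1 (median 2.94). Its C2 arrays were at -1.01, 1.42, 0.50, 0.74 and -0.53, all below C1, while C2 replicate 2 overlapped NC1. It fell 5.97-fold against C1 (log2 -2.58 ± 0.36, adjusted p = 1.43e-05) and 2.95-fold against NC1 (log2 -1.56 ± 0.36, adjusted p = 0.00187). C1 minus NC1 was 1.02 ± 0.34, with an unadjusted p of 0.00746 that gave an adjusted p of 0.239 in limma.

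H2AC12, the H2A gene whose probe holds the bases AATAAA, ran from -1.25 to -0.57 at NC1 (median -0.92) and from -0.64 to 0.76 at C1 (median -0.09). At C2 it was at -4.73, -1.49, -1.23, -0.66 and -2.10, all below C1, with C2 replicate 1 far below the others. It fell 4.30-fold against C1 (log2 -2.10 ± 0.51, adjusted p = 0.0028), and 2.70-fold without C2 replicate 1 (adjusted p = 0.001). The log2 difference was -0.91 with normexp (adjusted p = 0.00192) and -2.79 with array weights (adjusted p = 0.000215). It was above background on 4 of the 5 C2 arrays. Against NC1 the difference of -1.12 ± 0.51 did not pass (adjusted p = 0.0856).

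A pair of H2A probes that could be placed in no family fell against C1 and did not pass against NC1. LOC521825 was at 0.79, 1.25, 1.07, 1.18 and 0.84 on the C2 arrays, below the C1 range of 1.35 to 2.66, and fell 2.07-fold (log2 -1.05 ± 0.23, adjusted p = 0.00151). LOC524236 was at -1.21, -0.35, -0.92, -1.02 and -0.89, overlapping the C1 range of -0.68 to 1.35 by 1 array, and fell 2.65-fold (log2 -1.40 ± 0.29, adjusted p = 0.000722). LOC618147, which shares the 21 bases with LOC521825, differed by -0.06 ± 0.28 between C2 and C1 (adjusted p = 0.878), so these related H2A probes gave different values.

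H2AX, the H2A variant that is phosphorylated at DNA breaks and whose gene gives both a stem-loop and a polyadenylated mRNA, was the 1 replacement variant that fell. It ran from 6.10 to 6.72 at NC1 (median 6.48) and from 6.14 to 6.90 at C1 (median 6.43), and was at 5.68, 5.13, 5.84, 5.69 and 5.90 at C2. No C2 array overlapped the other stages. H2AX fell 1.73-fold against C1 (log2 -0.79 ± 0.18, adjusted p = 0.00226) and 1.72-fold against NC1 (log2 -0.78 ± 0.18, adjusted p = 0.00248). Neither call held with array weights (adjusted p = 0.012 and 0.0107) or with a replicate block (adjusted p = 0.0132 and 0.014). Normexp background correction ended the one against NC1 (adjusted p = 0.0822). Within the arrays of scan day 1 H2AX differed by -0.84 from C1, and within those of scan day 2 by -0.69.

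**Figure D2:**
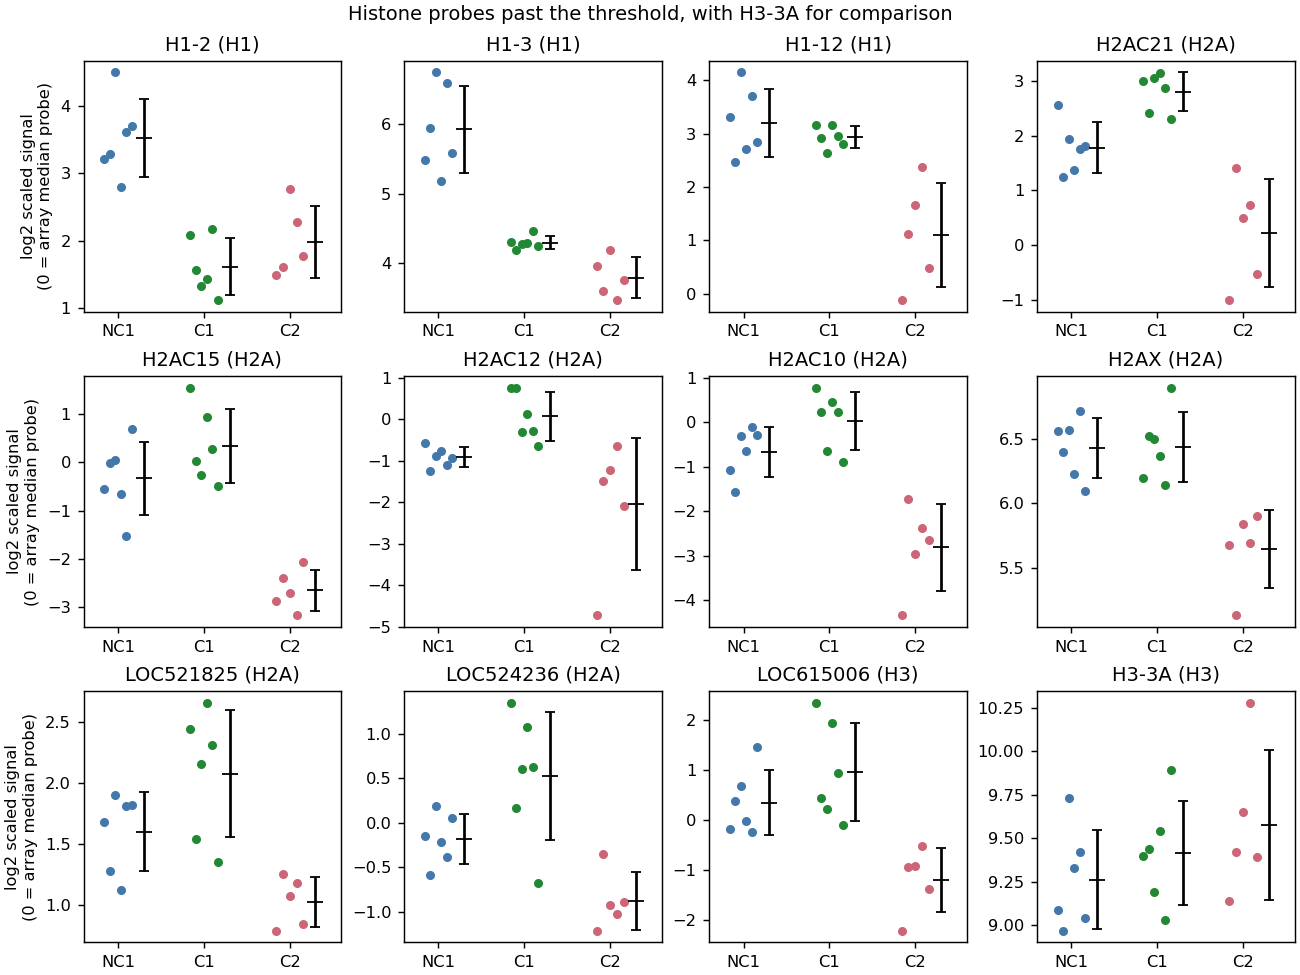
Log2 scaled signal (vertical axis, a scale of its own in each panel) of the 11 histone probes called in any comparison and of H3-3A, which was not called, at NC1, C1 and C2. Points are arrays, and the black mark with its bar is the mean ± SD. H1-2 and H1-3 are highest at NC1, whereas the H2A probes and LOC615006 are lowest at C2.

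Linker histones bind the DNA between nucleosomes. The clustered linker genes H1-2, H1-3 and H1-12 lie in the histone cluster, with 7, 8 and 9 histone genes among their 10 nearest neighbours, and all 3 fell at C2 in comparison to NC1. Of the 3, H1-2 and H1-3 also passed between NC1 and C1, and H1-12 also passed between C1 and C2. Whether the genes differ in these steps was not tested.

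H1-2 ran from 2.79 to 4.50 at NC1 (median 3.45) and from 1.11 to 2.17 at C1 (median 1.49). At C2 it was at 1.49, 1.60, 2.77, 2.27 and 1.77. All C1 and all C2 arrays lay below all NC1 arrays, and C1 and C2 overlapped. H1-2 was 3.75-fold lower at C1 than at NC1 (log2 -1.91 ± 0.28, adjusted p = 0.00649, exact permutation p = 0.00216, the smallest that 6 against 6 allow), and 2.91-fold lower at C2 than at NC1 (log2 -1.54 ± 0.30, adjusted p = 0.000452). C2 minus C1 was 0.37 ± 0.30 (adjusted p = 0.342), and it was -0.16 among the arrays of scan day 1 and 1.08 among those of scan day 2.

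H1-3 ran from 5.19 to 6.75 at NC1 (median 5.77), from 4.19 to 4.46 at C1 (median 4.28), and was at 3.96, 3.59, 4.19, 3.46 and 3.75 at C2. The C1 arrays were within 0.27 of each other, and the NC1 arrays spread over 1.56. H1-3 was 3.11-fold lower at C1 than at NC1 (log2 -1.64 ± 0.24, adjusted p = 0.00578, exact permutation p = 0.00216) and 4.40-fold lower at C2 than at NC1 (log2 -2.14 ± 0.25, adjusted p = 2.15e-06). C2 minus C1 was -0.50 ± 0.25 and did not pass (adjusted p = 0.114), with 4 of 5 C2 arrays below all C1 arrays.

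Between C1 and NC1, 0.0577% of all tested probes were called, 8 in number, and H1-2 and H1-3 were 2 of them. Both are the probes that were added singly, with earlier results of these data known. Their count is therefore not read against that share as a result about histone genes. The other 24 tested histone probes did not pass, and 7 of the 26 had an unadjusted p under 0.05. These calls were close to the threshold. The call of both ended without any one of NC1 replicates 1, 2, 5 and 6 and C1 replicates 1, 3, 4 and 6, and that of H1-3 also without C1 replicate 5, with adjusted p of 0.00453 to 0.0205 and of 0.00294 to 0.0205 over the 17 omissions. With the slide as a block the adjusted p was 0.0137 for both. C1 was below NC1 on 6 of 6 slides, by 1.12 to 3.07 for H1-2 and by 0.92 to 2.46 for H1-3, and the differences were -1.59 and -2.23 within the 2 scan days for H1-2 and -1.68 and -1.59 for H1-3.

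H1-12, which lies between H2AC7 and H4C4, differed by -0.27 ± 0.35 between C1 and NC1 (adjusted p = 0.869). It ran from 2.47 to 4.15 at NC1 (median 3.08) and from 2.63 to 3.16 at C1 (median 2.93), and was at -0.13, 1.12, 1.66, 2.37 and 0.48 at C2. Every C2 array was below all arrays of both other stages. H1-12 fell 3.57-fold against C1 (log2 -1.83 ± 0.37, adjusted p = 0.000657) and 4.29-fold against NC1 (log2 -2.10 ± 0.37, adjusted p = 0.000193), with differences from C1 of -2.48 among the arrays of scan day 1 and -0.89 among those of scan day 2.

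The linker variant H1-10, which is not tied to replication, passed in no comparison. It was at 9.64, 9.27, 7.12, 7.38 and 9.89 at C2, beside 8.41 to 10.26 at C1 and 7.85 to 9.40 at NC1. C2 replicates 3 and 4, the C2 arrays of scan day 2, lay below the other C2 arrays. C2 minus C1 was -0.69 ± 0.49 (adjusted p = 0.273), with 0.31 among the arrays of scan day 1 and -2.17 among those of scan day 2. The part of the scan day was not tested apart from that of the cows.

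**Figure D3:**
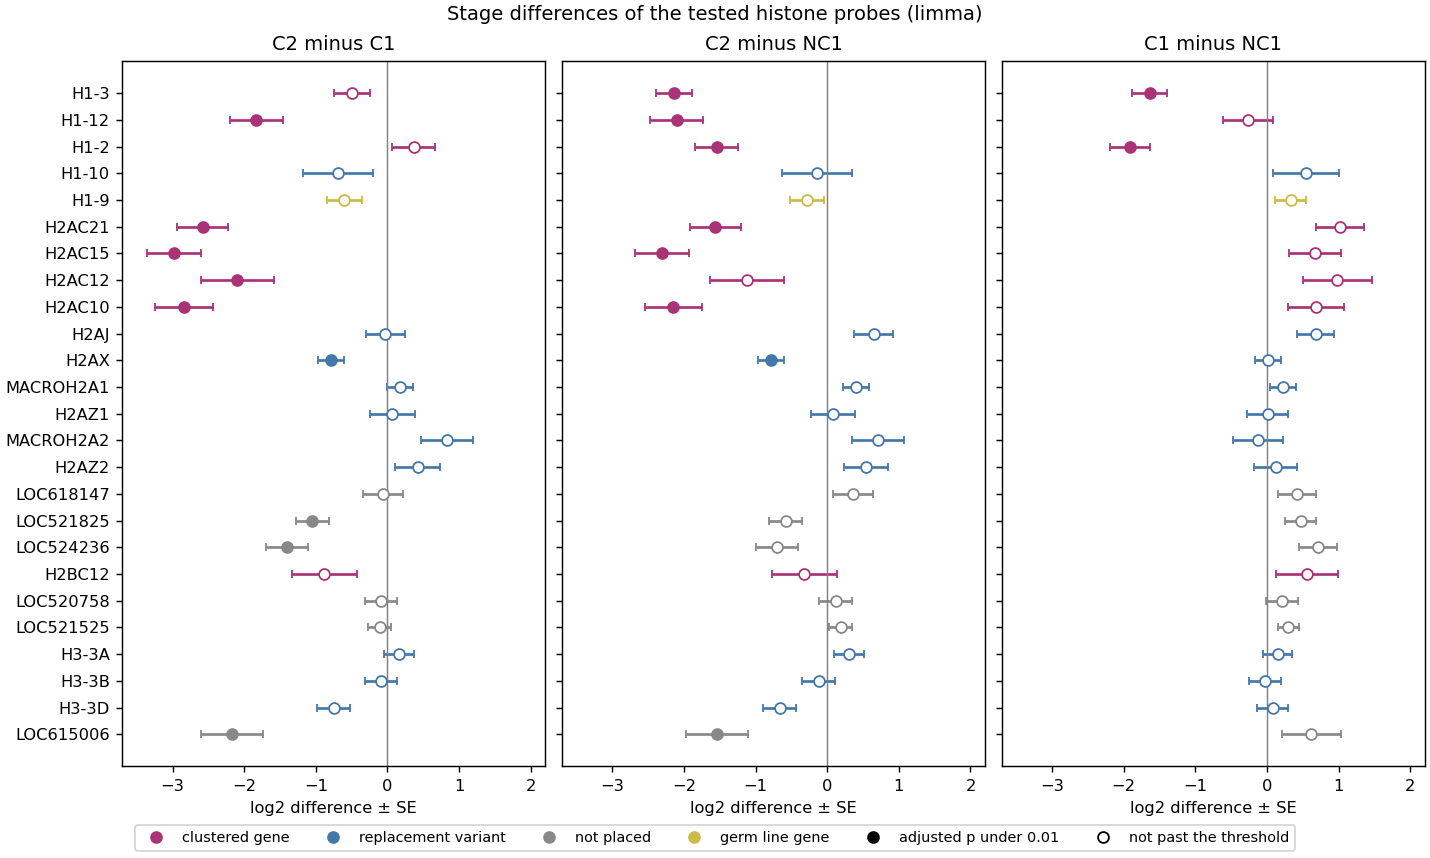
Log2 differences between stages (horizontal axis) with SE bars for 25 of the 26 tested histone probes, one panel per comparison. Filled points passed an adjusted p under 0.01 in limma, open points did not, and colours give the gene family. Filled points are all left of 0, most of them are clustered genes, and in C1 minus NC1 only H1-2 and H1-3 are filled.

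The replacement variants other than H2AX kept overlapping levels between the stages. H3-3A, a gene of the variant H3.3 that is laid down outside of replication, ran from 8.97 to 9.73 at NC1 and from 9.03 to 9.89 at C1, and was at 9.14, 9.42, 9.65, 10.28 and 9.39 at C2. C2 minus C1 was 0.16 ± 0.21 (adjusted p = 0.572). H3-3B, the other H3.3 gene, differed by -0.09 ± 0.23 (adjusted p = 0.768). H3-3D was 0.75 ± 0.23 lower at C2 than at C1 before adjustment and did not pass (log2 difference -0.75, adjusted p = 0.0143).

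Among the H2A variants, H2AJ ran from 6.91 to 7.84 at NC1 and averaged 8.08 ± 0.55 at C1, and was at 8.20, 8.22, 7.32, 7.85 and 8.67 at C2, a difference from C1 of -0.03 ± 0.27 (adjusted p = 0.932). H2AZ1 and H2AZ2, genes of H2A.Z, which is found at promoters, differed from C1 by 0.07 ± 0.31 and 0.42 ± 0.31. MACROH2A1 and MACROH2A2, genes of macroH2A, which carries a large extra domain, differed by 0.18 ± 0.18 and 0.83 ± 0.36. None of these passed, with adjusted p of 0.302 for H2AZ2, 0.0769 for MACROH2A2, 0.454 for MACROH2A1 and 0.872 for H2AZ1. A difference that did not pass is not shown to be absent.

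Of the H2B probes, 3 of 9 were tested and none passed in any comparison in limma, with no unadjusted p under 0.05. LOC520758 was at 2.00, 2.22, 2.43, 3.21 and 1.80 at C2 and from 2.04 to 2.72 at C1, a difference of -0.09 ± 0.23 (adjusted p = 0.777). LOC521525 differed by -0.11 ± 0.16. Both are described on the array as members of the H2B family and keep the array's name here.

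The C2 and C1 arrays did not overlap for 8 of the 26 tested histone probes, where 21.6% of all tested probes did not overlap. The C2 and NC1 arrays did not overlap for 7, where 20.9% of all did not, and the C1 and NC1 arrays for 2, where 2.1% of all did not. These 2 are H1-2 and H1-3, which were added singly and are also among the 7.

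The count of probes that rose depended on how histone probes were recognised. A wider reading of names and descriptions added 20 probes, such as those described as like a human histone cluster gene without the words searched. With them 3 histone probes rose at C2 against C1 and 2 against NC1. These probes are named because of their direction. H2BC19 was at 0.55, 0.13, 1.51, 1.54 and 0.76 at C2 and from -3.21 to -1.86 at C1, and rose by 3.54 ± 0.35 on the log2 scale (adjusted p = 3.56e-07). H2BC21 rose by 1.15 ± 0.17 (adjusted p = 3.43e-05) and H2AC6 by 1.72 ± 0.28 (adjusted p = 7.61e-05). All 3 are clustered genes by name. The probes of H2BC21 and H2AC6 hold the bases AATAAA, near the end and near the start of the probe, and that of H2BC19 does not. Whether these bases serve as a poly(A) signal was not tested. The same wider reading added the linker gene H1-5, which fell by 2.76 on the log2 scale against C1 (adjusted p = 0.00285), and probes of H3C1 and H3-4, which fell by 1.01 and 0.96. The array describes the latter probes as H2A genes, and the H3 names are those of the reference.

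Of the germ-line histone probes, 7 of 8 were not tested, since they were not well above background on enough arrays of each stage. H1-8, the linker histone of the oocyte, was the clearest of them. It ran from 1.92 to 3.39 at NC1 (median 2.63) and from -1.63 to 2.03 at C1 (median 0.47), and was at -3.35, -5.77, -5.38, -5.64 and -3.15 at C2. All 12 arrays of NC1 and C1 measured it well above background, and 2 of the 5 C2 arrays did. In a fit without the filter on dim probes, C2 minus NC1 was -7.29 ± 0.62 (adjusted p = 8.96e-08), and C1 minus NC1 was -2.43 ± 0.60 and did not pass (adjusted p = 0.0442). Since 3 of the 5 C2 arrays did not measure it, the size of the fall at C2 is uncertain.

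Among the oocyte markers looked for, most had a higher mean at NC1, as had H1-8. The array carries 17 of the other oocyte markers looked for. Of these, 15 had a higher mean at NC1 than at C1, 15 at NC1 than at C2, and 11 at C1 than at C2. The share of all probes with such means was not counted. Of the 5 tested in limma, 0 fell and 1 rose at C2 against C1, and 3 fell and 1 rose against NC1. Between C1 and NC1, 0 of the 5 passed in either direction. The summed signal of 16 of the 17 left out UCHL1, which rose at C2. It ran from 6.06 to 7.31 at NC1, from 2.40 to 5.89 at C1 and from 1.92 to 3.03 at C2 on the log2 scale. The zona pellucida gene ZP3 fell by 2.95 ± 0.33 at C2 against NC1 (adjusted p = 1.62e-06), and 5 of the 17 markers were well above background on all NC1 arrays and on no C2 array. The part of oocyte RNA in the level of H1-8 was not tested.

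For the summed signal of the 16 markers, as for H1-2 and H1-3, every NC1 array was above every C1 array. On C1 replicates 1 to 6, the summed signal of the 16 markers was 5.01, 5.89, 2.77, 4.55, 4.47 and 2.40. H1-3 was at 4.31, 4.19, 4.27, 4.29, 4.46 and 4.24 on the same arrays, and H1-2 at 2.08, 1.56, 1.32, 1.43, 2.17 and 1.11. Within C1, H1-2 was lowest on replicates 6 and 3, where the markers were lowest, and highest on replicate 5. H1-3 was lowest on replicate 2, where the markers were highest, but its C1 arrays ran only from 4.19 to 4.46. On NC1 replicates 1 to 6, the summed signal of the markers was 6.58, 7.31, 6.06, 6.53, 6.57 and 6.92. H1-2 was at 3.21, 3.29, 4.5, 2.79, 3.62 and 3.71 there, and H1-3 at 5.49, 5.95, 6.75, 5.19, 6.6 and 5.59. The part of the oocyte RNA in the difference between NC1 and C1 was not tested.

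H2BL1, an H2B variant known from the male germ line, was measured above background by all 6 C1 arrays, by 4 of 6 NC1 arrays and by no C2 array. It ran from -1.57 to 0.00 at C1 and from -4.13 to -1.94 at NC1, without overlap, and its C2 arrays measured -5.86, -5.72, -4.28, -4.09 and -6.23. The measured means, -0.94 at C1 and -5.24 at C2, were 19.7-fold apart. Since no C2 array measured it well above background, the size of this difference is uncertain. The fit without the filter gave 2.01 ± 0.43 for C1 minus NC1, which did not pass (adjusted p = 0.0318).

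**Figure D4:**
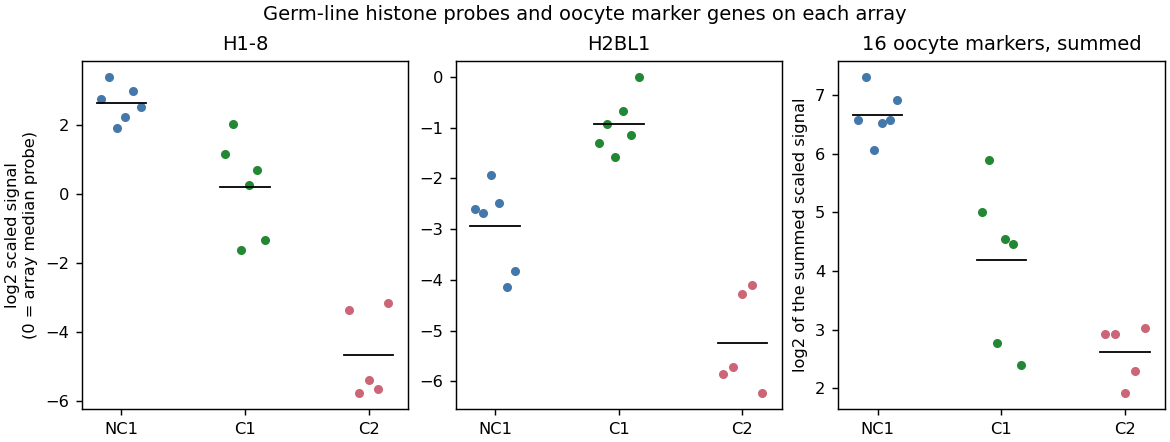
Log2 scaled signal (vertical axis) of the germ-line histones H1-8 and H2BL1 and log2 of the summed scaled signal of 16 oocyte markers on each array, by stage. Points are arrays and black lines are means. The means of H1-8 and of the summed markers are highest at NC1 and lowest at C2, whereas that of H2BL1 is highest at C1. At C2, 2 of 5 arrays measured H1-8 well above background and none measured H2BL1.

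The remaining germ-line probes were dim. H1-9, the linker histone of spermatids, was tested and passed in no comparison, with C2 minus C1 at -0.60 ± 0.24 (adjusted p = 0.0474). H1-7, LOC617898, LOC528006, LOC616431 and LOC531650 were placed in the germ line by their names or descriptions and were each well above background on at most 3 of the 17 arrays. The clustered genes H2BC11, H2BC3 and H4C1, with LOC523458 and the array's probe H4, were likewise not tested, so that no test is given for H4 and few for H2B. H2BC11 was above background on 4 C1 arrays and no others, and the probe H4 on 1, 2 and 3 arrays of NC1, C1 and C2.

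Genes that work with histones were looked at by lists of known function. Of 34 tested genes of DNA replication, the process that the clustered histones serve, 19 fell at C2 against C1 and 1 rose, with a median of -1.30, and 16 fell against NC1. Of all tested probes, 12.8% fell and 15.3% rose against C1, and 12.6% fell against NC1. LIG1, the ligase that joins new DNA, fell by 1.69 ± 0.21 against C1, while DUT and RRM1, which supply nucleotides, did not pass (log2 differences -1.72 and 0.00). Of 24 tested genes of mitosis, 4 fell against C1 with a median of -2.19, a share near the 12.8% of all tested probes that fell. Their summed level spread at C2 from 5.34 to 9.81, beside 9.35 to 10.06 at C1.

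Of 23 tested histone chaperones, 4 fell and 2 rose against C1, with a median of -0.01. Of all tested probes, 12.8% fell and 15.3% rose, so these counts are not read as a result about chaperones. NAP1L1, a chaperone of H2A and H2B, fell by 0.97 ± 0.18, while NPM1 and SSRP1 did not pass (-0.51 ± 0.19 and -0.01 ± 0.20). Of 15 tested genes that process the 3' end of histone mRNA, 1 rose against C1, with a median of 0.31, 3 rose against NC1, and the rest did not pass. Of all tested probes, 15.3% rose against C1 and 15.5% against NC1, and the counts are too small to read against these shares. SNRPB rose by 0.75 ± 0.18 against NC1, and SNRPD3 and CPSF3L did not pass (0.40 ± 0.22 and 0.12 ± 0.22). SLBP, named in addition because it binds the stem-loop, differed by -0.18 ± 0.26 from C1 (adjusted p = 0.597) and by -0.29 ± 0.26 from NC1.

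Markers of cell types were set beside these values, against 15.3% of all tested probes higher and 12.8% lower at C2 than at C1. Of 16 tested markers of cumulus and granulosa cells, 9 fell against C1, and their summed level ran from 11.51 to 13.12 at C2 and from 12.60 to 13.28 at C1. Of 7 tested markers of cumulus expansion, 6 rose and 1 fell. Of 13 tested leukocyte markers, 5 rose against C1, with summed levels of 4.38 to 6.84 at C2, 4.87 to 5.55 at C1 and 5.15 to 6.19 at NC1. Endothelial markers rose for 2 of 8 tested, with 2 of 12 on the array well above background nowhere, theca and stroma markers rose for 2 of 10 and fell for 1, and red blood cell markers fell for 1 of 3, counts too small to read against those shares. The part of other cell types in the histone differences was not tested.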

How the data were processed

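The authors deposited for each spot the background-subtracted intensity written by Agilent Feature Extraction 10.5.1.1, and a table of log2 values scaled by each array's median. From the intensities, log2 signals were averaged over a probe's spots without those marked non-uniform or outlying, and centred on the array's median. Apart from a constant of 7.19 to 7.20 per array, nearly all of the authors' log2 values differed by at most 2.3e-06 from these. Probes seen on 80% or more of the arrays in every stage were tested in limma 3.58.1 (R 4.3.3), 3 stages in 1 fit, with Benjamini-Hochberg adjustment over all 13865 of them. The fit was tested on simulated data. Single probes were also compared by exact permutation (scipy 1.17.1). The 17 arrays lay on 6 slides, each with 1 NC1 and 1 C1 array, and 5 with a C2 array, and were scanned on 2 days.

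Histone probes, families and gene lists were chosen with earlier results of these data known. The text names H1-2, H1-3, each called probe, the tested probe with the highest signal of each class and family, and each probe seen on all arrays of 1 stage and none of another. Within each list up to 3 tested genes with the highest signal are named, and other names were added after their values were seen, as the text says. Current symbols and neighbours come from the RefSeq annotation of ARS-UCD2.0. Coordinates are left out, since the build behind the probe design is not given in the sources used here. Probes of FEN1 and PTTG1 that the array describes as another gene were left out. Alternatives were other scalings, background correction, filters, the authors' table, slide, scan day and replicate blocks, array weights, the methods' one-factor test, other readings of the rule, and leaving out each array. For 1 tested probe, included in the counts, the values are not reported here.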

Additional observations from a re-analysis of the deposited data

Results flagged for a closer look

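In the 78 groups formed by 26 tested histone probes and 3 stages, 2 arrays stood apart from their group by the ratio of the gap to the range. Chance flags about 1 in 20 groups. Both were C2 replicate 2. H3-3B was at 6.28 there and between 7.19 and 7.55 on the other C2 arrays. H2AX was at 5.13 there and between 5.68 and 5.90 on the others, and without this array H2AX fell by 0.66 on the log2 scale against C1 (adjusted p = 0.00603 in limma) and by 0.65 against NC1 (adjusted p = 0.00661).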

How the results depend on the processing

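Among 78 single differences, 19 were called, none reversed under any alternative, and 14 of the 19 kept the call under every alternative except the split by scan day. The other 5 were those of H1-2 and H1-3 between C1 and NC1, of LOC615006 against NC1, and of H2AX in both comparisons, and 4 differences that were not called passed in at least 1 alternative. Scaling by the 75th percentile, quantile normalization, the authors' table, keeping all spots, 1 probe per gene and a robust trended variance moved no count by over 1.5 times. Normexp background correction with its offset of 50 moved the size of the differences of H2AC15, H2AC10, H2AC12 and LOC615006 by 1.56 to 3.01 times towards 0. Array weights gave 4 probes between C1 and NC1 instead of 2. The replicate numbers do not pair the animals, since deviations of equally numbered arrays correlated from -0.32 to 0.25. With a replicate block 7 probes differed among the stages instead of 11, and 0 between C1 and NC1, as with the slide as a fixed block. Matching the text with case (29 probes) gave 6 that differed among the stages, 4 lower than C1 and 5 lower than NC1. The wider reading (58 probes) gave 18 that differed, 3 higher than C1 and 2 higher than NC1. Within the 2 scan days, chosen after seeing the data, 4 and 9 differed among the stages, 4 and 6 were lower than C1, 4 and 4 lower than NC1, 0 and 1 higher than C1 and than NC1, and 0 between C1 and NC1. All 19 called differences kept their sign in both. Leaving out each array in turn gave 9 to 11 that differed, 9 to 10 lower than C1, 7 to 8 lower than NC1, 0 to 0 higher than either, and 0 to 2 between C1 and NC1. The limits are the few arrays, labelling from poly(A), dim H2B and H4 probes, and possible signal from near-identical copies.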
